A study of Hordeum vulgare with 8 samples.

Results

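Among the deep transcripts of the shoot apex, 65 differed in read depth between the near isogenic lines (NILs) e35RD and e35RM by the limit set here, 33 of them deeper in e35RD and 32 deeper in e35RM. The 65 transcripts were chosen by measured values, namely by the depth ratio itself, so their ratios are given as a description without a test. Of 5076 deep transcripts the 65 made up 1.28%, those deeper in e35RD 0.65% and those deeper in e35RM 0.63%. Deep transcripts had at least 2 usable sites and a mean depth of at least 20 reads per site in a line. A usable site had passed the filter of the authors, had a single reference base and a single other base, and was covered by at least 5 reads in a line. The ratio was the log2 of the mean depth in e35RD over that in e35RM, with 1 read added to each mean, and its absolute value had to reach 0.5, a change of 1.41-fold. MLOC_72272.1 and MLOC_54434.1 were left out by the same rule. The paper's own expression analysis, which kept duplicate reads, called only these genes as differentially regulated between the NILs. The 65 transcripts were thus not called there. The paper proposes that high variation between replicates may have kept the number of called genes low. The table listed 40344 transcripts, of which 15858 had a usable site.

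Both NILs are barley (Hordeum vulgare) in a largely Morex background and came from 1 heterogeneous inbred family, DM1-e35R. The paper assigns a minority of their genes with variants to introgressed wild barley. It describes the lines as differing only in the QTL region, and the inbred families as fixed for the wild allele of the row-type gene vrs1. Line e35RD, with short awns, was homozygous for the wild barley (HID382) allele at the awn length QTL AL7.1, and e35RM, with long awns, was homozygous for the Morex allele. The segregating introgression lay between 132.01 and 134.21 cM on the POPSEQ map. Plants of both lines grew in a greenhouse at 22 °C for 16 h of light and 18 °C for 8 h of darkness, and pooled apices were taken at Waddington stage 5.5. Each line was sequenced in 4 libraries, 8 in all, and the 4 libraries stand pooled in 1 column per line, so no spread between libraries could be computed for any value. Each allele of AL7.1 was represented by 1 line.

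Awns are the bristles of the barley spike, and at this stage of the apex the floret organs are laid down and the awns start to emerge. Read depth at a site is the number of reads that cover it, and over the sites of a transcript it follows the amount of RNA in the pool, the mappability of the reads and the length of the transcript that is covered. Duplicate reads had been removed before calling, so reads that start at the same position of a transcript and strand were counted once and depth is not proportional to RNA amount. In such bulk tissue, fewer cells of a type and less RNA per cell cannot be told apart. Besides depth, the caller gave each line a genotype, a quality of that genotype and the likelihoods of the 3 possible genotypes at each site, or no call.

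Over the 44436 usable sites the reads divided evenly, with 50.2% of them from e35RD and a median depth of 22 reads in each line. The highest depth at a usable site was 195 reads in e35RD and 196 in e35RM. The log2 ratio of all deep transcripts had a median of 0.01, and 95% of them lay between −0.32 and 0.34. The 65 transcripts together had 3542 reads in e35RD and 3590 in e35RM. The identity of the tissue was not checked against marker genes, since no annotation of the transcripts in the table was used beyond that given below.

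**Figure D1:**
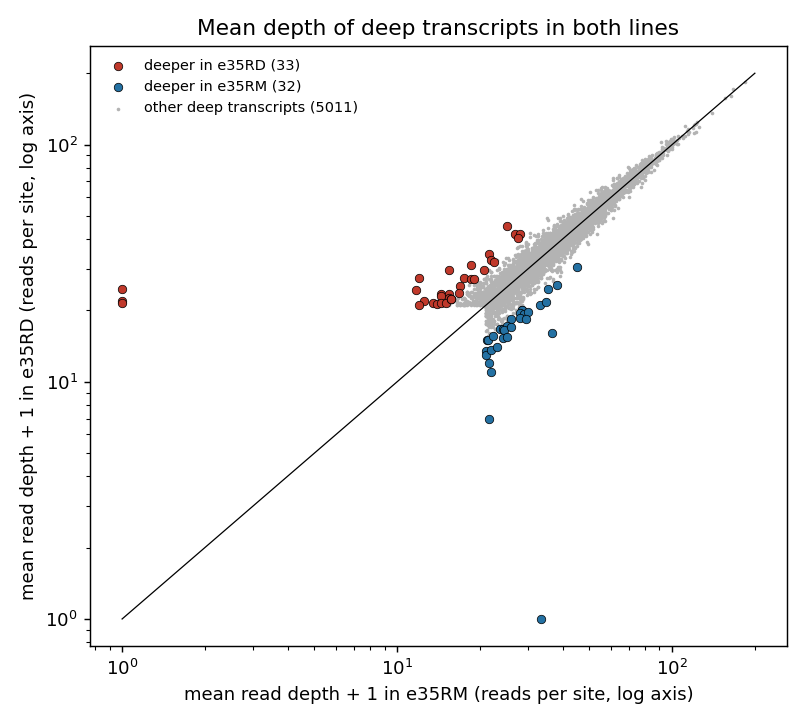
Mean read depth plus 1 read (reads per site, log axes) of each deep transcript in e35RD on the y axis and in e35RM on the x axis. Red points are the 33 transcripts deeper in e35RD, blue points the 32 deeper in e35RM and grey points the 5011 others, the line marks equal depth, and the 4 points at 1 on an axis had no call in that line.

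Most of the differences were small. In 49 of the 65 transcripts the absolute log2 ratio was under 0.7, and in 9 it was at least 1. The 33 transcripts deeper in e35RD had mean depths of 20 to 44.5 reads in e35RD, with a median of 23.3, and of 0 to 27 reads in e35RM, with a median of 14.7. Those deeper in e35RM had 0 to 29.5 reads in e35RD, with a median of 15.7, against 20 to 44 reads in e35RM, with a median of 24.6. Only 12 of the 65 reached a mean of 20 reads in both lines, 7 deeper in e35RD and 5 deeper in e35RM. The other 53 were deep transcripts through the line in which they were deeper, and a transcript near the minimum could enter in this way alone.

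Sites in the text are written with the base of the reference transcript first, then its position in the transcript (its first base at the 5′ end being 1), then the other base. In e35RD, MLOC_34066.1 had 23 reads at A101G and 24 reads at A109T, and e35RM had no call at either site. For MLOC_31686.1, e35RD had 21 reads at C75G and 21 reads at G98C, against no call in e35RM. At MLOC_27316.1, T131G had 23 reads and C165T had 18 reads in e35RD, with no call in e35RM. These 3 transcripts thus had calls in e35RD alone, and the table does not tell whether e35RM had reads at these sites. MLOC_39909.1 showed the opposite pattern, with no call in e35RD and 33 reads at A121G and 32 reads at A122C in e35RM. No fold is given for these 4 transcripts, since it would depend on the read added to the mean.

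The calls in these 4 transcripts rested on few reads that counted. Genotype quality is phred-scaled and runs up to 99, and it was 6 at the sites of MLOC_34066.1, MLOC_31686.1 and MLOC_39909.1 and 3 at those of MLOC_27316.1. At a homozygous call each fully weighted read adds 3.01 phred units to the likelihood of the heterozygote, and this likelihood divided by 3.01 is here called the number of informative reads. It was 0.997 at both sites of MLOC_27316.1 and 1.99 at the sites of the other 3 transcripts, whereas depth was 18 to 33 reads. A read with the opposite base also lowers this number, but no such read was listed at these sites. The table therefore listed many reads at these sites, of which few had weight in the call. MLOC_34066.1 had another pair of sites that failed the filter, G147C with 34 reads and C149G with 33 reads in e35RD, again with 1.99 informative reads and no call in e35RM. Why the other reads had little weight was not tested.

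A line without a call was not always a line without reads. In 15 of the 65 transcripts (8 deeper in e35RD and 7 deeper in e35RM) a usable site lacked a call in a line, and in all 15 this was the line with the lower mean. Among the other 5011 deep transcripts, 98 (1.96%) had such a site. The rule takes a missing call as 0 reads, which lowers the mean of that line, so the share among the 65 is in part set by the rule. By site, a call was missing at 19 of 170 sites (11.2%), against 103 of 23401 (0.440%) in the other deep transcripts.

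For 11 of the 19 sites the line without a call had a call at another listed site of the same transcript, and for 8 of these that site lay within 50 bases. At those 8 neighbouring sites the line had 15 to 30 reads, and at least 20 reads at 7 of them. In AK364615, T189C had 27 reads in e35RD and no call in e35RM, but A178G, 11 bases away, had 30 reads in e35RD and 29 reads in e35RM. AK356234 had no call in e35RD and 34 reads in e35RM at G63C, while at C72A, 9 bases away, there were 30 reads in e35RD and 37 reads in e35RM. MLOC_19730.1 lacked a call in e35RD at A100G, where e35RM had 21 reads. At A59G of the same transcript, a site that failed the filter, there were 20 reads in e35RD and 29 reads in e35RM. In AK364615 and AK356234 the lines were thus close in depth at the site next to the missing call.

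Of the 19 sites, 15 had a homozygous call in the other line, with 0.997 to 4.98 informative reads, a median of 1.99 and a genotype quality of 3 to 15. The remaining 4 were heterozygous in the other line. AK365531 was such a case, with no call in e35RD and 16 reads and a quality of 64 in e35RM at T736C. Its 2 other sites had 28 and 5 reads in e35RD, against 33 and 13 reads in e35RM.

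The ratio of several of the 15 transcripts came from the site without a call. Computed over sites with a call in both lines, 4 of the 15 had no value, 2 stayed past 0.5 and 9 did not. AK364615 had a log2 ratio of 0.93 with the missing call taken as 0 reads and 0.05 at the site called in both lines. The ratio of AK356234 was −1.19 by the rule and −0.29 at its called site. MLOC_31814.1 had 9 reads at C31T in e35RD and no call there in e35RM, and at C88T it had 31 reads in e35RD and 22 reads in e35RM, with a ratio of 0.81 by the rule and 0.48 at C88T. In MLOC_61601.1, G3A had no call in e35RD and 9 reads in e35RM, and G31T had 24 reads in e35RD against 31 reads in e35RM, with ratios of −0.69 by the rule and −0.36 at G31T. MLOC_19730.1 kept a ratio of −0.69 at A21G, with 12 reads in e35RD and 20 reads in e35RM, compared with −1.62 by the rule. The size of the difference in these transcripts was therefore set by how a missing call was counted, and in MLOC_19730.1 a difference past the limit remained.

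**Figure D2:**
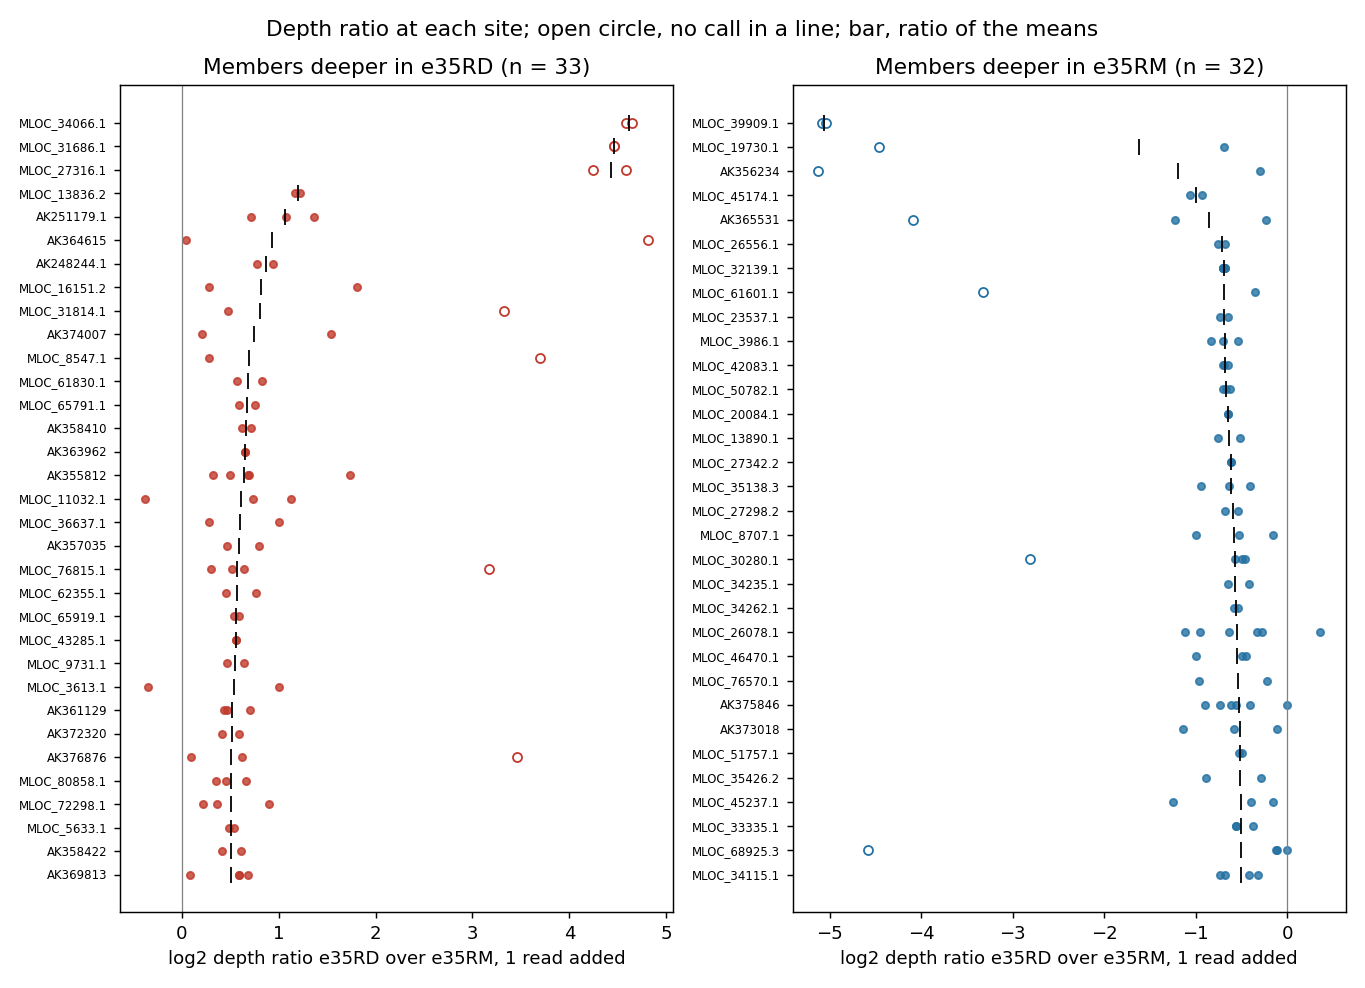
The log2 depth ratio of e35RD over e35RM (1 read added, x axis) at each usable site of the 65 transcripts, with the 33 deeper in e35RD on the left and the 32 deeper in e35RM on the right. Filled circles are sites with a call in both lines, open circles the 19 sites without a call in a line, counted as 0 reads, and the black bar is the ratio of the means. All open circles lie outside the range of the filled ones.

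The other 50 transcripts, 25 in each direction, had a call in both lines at every usable site. Their log2 ratios lay between −1.0 and 1.20, the median absolute ratio was 0.58, and 3 reached an absolute ratio of 1. These 3 were MLOC_13836.2, AK251179.1 and MLOC_45174.1. In 46 of the 50 all sites differed in the same direction, which the choice by the mean ratio favours.

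Among the transcripts deeper in e35RD, MLOC_13836.2 had 27 reads in e35RD against 11 reads in e35RM at C143A, and 26 reads against 11 reads at the adjacent C144A. Its ratio of 1.20 thus rested on nearly the same reads at both sites. AK251179.1 had 18, 30 and 22 reads in e35RD at C64T, G874A and G979A, against 8, 11 and 13 reads in e35RM. These sites spanned 915 bases, the widest span in the 65 transcripts, and e35RD was deeper at all 3 of them, with a ratio of 1.06 for the means. AK248244.1 had the highest mean depth of the 65 in the deeper line, 44.5 reads, with 40 reads at C261T and 49 reads at A293G in e35RD, compared with 23 and 25 reads in e35RM. Its ratio was 0.86.

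AK355812 had the most sites among those deeper in e35RD, at 5. In e35RD they had 55, 54, 39, 37 and 19 reads from the 5′ to the 3′ site, and in e35RM 34, 33, 31, 26 and 5 reads. Depth fell toward the 3′ site in both lines, e35RD was the deeper line at every site, and the ratio of the means was 0.64. AK357035 had 32 and 50 reads in e35RD at C40T and T90G, against 18 and 36 reads in e35RM, with a ratio of 0.58. MLOC_76815.1 had 24, 29 and 36 reads in e35RD at the 3 sites called in both lines, against 15, 20 and 29 reads in e35RM. The remaining site, A27T, had 8 reads in e35RD and no call in e35RM, and the ratio was 0.57 with this site, 0.46 without it and 0.33 with failed sites included.

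In 2 other transcripts a single site carried the ratio. MLOC_16151.2 had 22 reads in e35RD and 18 reads in e35RM at G236C, but 20 reads in e35RD and 5 reads in e35RM at C354G. AK374007 had 29 reads in e35RD and 25 reads in e35RM at C164T, and 31 reads in e35RD and 10 reads in e35RM at T223C, 59 bases downstream. Their ratios of 0.82 and 0.74 averaged a site of near equal depth with a site of low depth in e35RM. The median informative shares were 99.7% in MLOC_16151.2 and 98.0% in AK374007. In MLOC_16151.2 the 5 reads of e35RM at C354G gave a genotype quality of 15, and at G236C alone the ratio was 0.28.

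Among those deeper in e35RM, MLOC_45174.1 had 10 reads in e35RD at T117A and 10 reads at C118G, against 22 and 20 reads in e35RM. The ratio of −1.0 was the lowest with a call at every site, and the adjacent sites again shared reads. MLOC_26556.1 had 14 and 12 reads in e35RD at C103T and G131A, against 23 and 21 reads in e35RM. MLOC_23537.1 had 15 and 14 reads in e35RD at C299G and G307A, against 24 reads in e35RM at each. Both transcripts had near equal depth at their neighbouring sites within a line, with ratios of −0.72 and −0.69. In MLOC_26556.1, however, failed sites were split in direction. C64T had 12 reads in e35RD and 16 reads in e35RM, but A168G had 18 reads in e35RD and 16 reads in e35RM. The ratio was −0.098 at the failed sites alone and −0.28 with failed sites included. MLOC_3986.1 had 13, 18 and 21 reads in e35RD at T105C, T121C and C171G, against 24, 30 and 31 reads in e35RM.

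The deepest with calls at every site in this direction was MLOC_34262.1, with 30 reads at C569G and 29 reads at A570C in e35RD, against 44 reads in e35RM at each and a ratio of −0.56. MLOC_30280.1 had 28, 42 and 28 reads in e35RD at C51T, G84A and A123G, against 39, 63 and 40 reads in e35RM. It had no call in e35RD and 6 reads in e35RM at T2A, and the ratio was −0.58 with this site and −0.52 without it. MLOC_32139.1 had 15, 15, 15, 14 and 4 reads in e35RD at its 5 sites, against 25, 25, 25, 23 and 7 reads in e35RM. These sites lay within 83 bases, and largely shared their reads, and the ratio was −0.69.

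With 6 sites each, AK375846 and MLOC_26078.1 had the most sites of the 65. AK375846 had 14 to 27 reads in e35RD, against 21 to 36 reads in e35RM, and its C97T had 21 reads in each line. MLOC_26078.1 had 8 to 23 reads in e35RD, against 6 to 30 reads in e35RM. Within MLOC_26078.1, G282C had 8 reads in e35RD and 6 reads in e35RM, against the direction of the mean, whereas A37C had 11 reads in e35RD and 25 reads in e35RM. The ratios of −0.52 and −0.55 thus did not hold along the whole of either transcript. For MLOC_26078.1 the ratio was −0.19 with failed sites included, and at the failed sites alone it turned to 0.29. One of these was T192G, with 35 reads in e35RD and 27 reads in e35RM.

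In 60 of the 65 transcripts all sites differed in the direction of the mean, against 1376 of the 5011 other deep transcripts. Choice by the mean ratio favours such agreement, so it is described only. A site against the direction of the mean occurred in 3 of the 65 transcripts. Besides MLOC_26078.1 these were MLOC_11032.1 and MLOC_3613.1, both deeper in e35RD on average and named after their values were seen. MLOC_3613.1 had 33 reads in e35RD and 16 reads in e35RM at T253C, but 10 reads in e35RD and 13 reads in e35RM at T650C, 397 bases away. In MLOC_11032.1, T267G had 9 reads in e35RD and 12 reads in e35RM, while its other sites had 23 and 29 reads in e35RD, against 10 and 17 reads in e35RM. Calls at every site and a distance of 200 bases or more between the outer sites were found in 12 transcripts, and 3 of these 12 had a site against the direction of the mean.

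The share of reads from e35RD at the deepest site of each transcript was computed with a 95% Clopper-Pearson interval, which covers counting error only. Since the same depths chose the transcripts, the intervals give the precision of the shares and are not a test of equal depth. In the 61 transcripts with a site called in both lines the interval was 19.5 to 35.2 percentage points wide, with a median of 27.9 points. Among these the share was 50.8 to 73.2% in the transcripts deeper in e35RD and 31.2 to 48% in those deeper in e35RM. For AK251179.1 it was 73.2% (57.1 to 85.8%), and for AK355812, covered by more reads, 61.8% (50.9 to 71.9%).

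**Figure D3:**
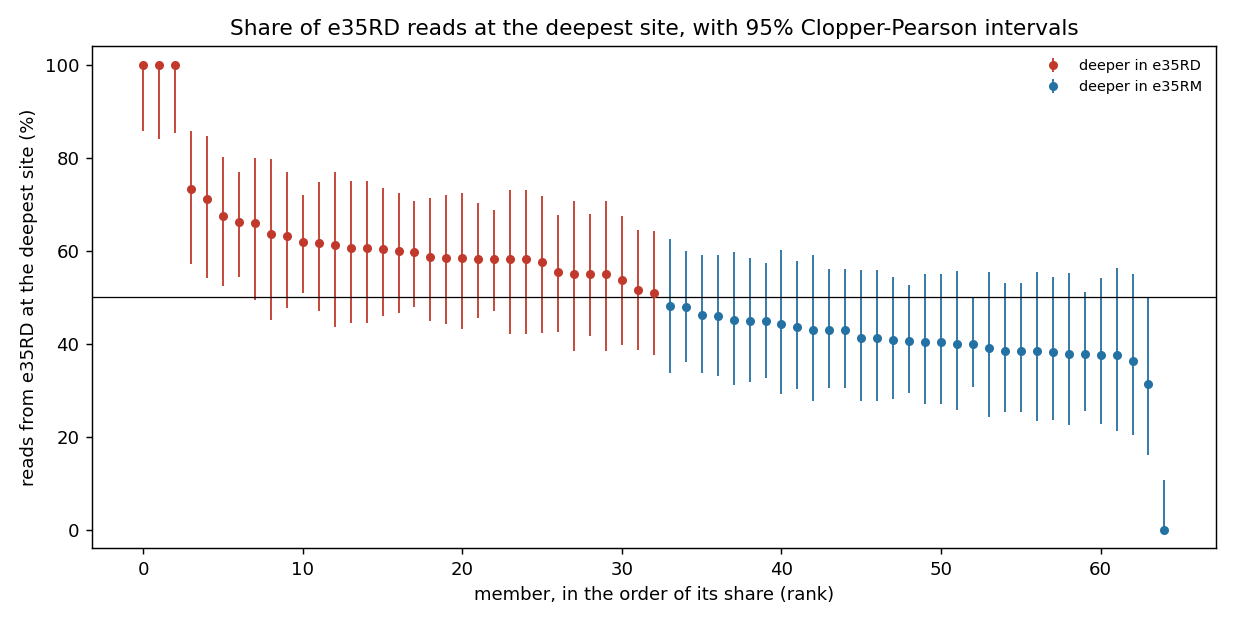
Share of reads from e35RD (%, y axis) at the deepest site of each of the 65 transcripts, in the order of that share (x axis, rank), with 95% Clopper-Pearson intervals. Red are transcripts deeper in e35RD and blue those deeper in e35RM, the line marks 50%, and the 4 transcripts at 100% or 0% had no call in a line. The intervals of the 61 others are 19.5 to 35.2 percentage points wide.

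The 65 transcripts lay at the lower end of the depth range. Of the 777 deep transcripts with 20 to 25 reads in the deeper line, 35 (4.50%) were among the 65, and of the 730 with 25 to 30 reads, 15 (2.05%). The share was 0.899% (11 of 1224) from 30 to 40 reads, 0.250% (4 of 1600) from 40 to 60 reads, and 0 of 745 at 60 reads or more. The standard deviation of the log2 ratio over all deep transcripts was 0.36 in the lowest and 0.07 in the highest of these classes. The highest mean depth in the deeper line was 44.5 reads among the 65, and above it the largest absolute ratio of 1849 deep transcripts was 0.49. Depth thus moved together with membership, and its part in it was not tested. Since duplicates had been removed and depth is not proportional to RNA amount, small ratios at high depth do not show equal RNA amounts.

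In several transcripts with unequal depth the number of informative reads was also low for the depth. Reads of low weight and reads with the opposite base both lower this number, and these were not separated. In AK248244.1, C261T had 11 informative reads of 23 in e35RM, where 1 read had the reference base. Over sites and lines with a homozygous call, the median share of informative reads was 88.6% in the 65 transcripts (lower quartile 68.9%) and 96.9% in the other deep transcripts (lower quartile 88.3%). The median of a transcript was under 50% in 19 of the 62 that had a homozygous call (30.6%), against 322 of 4778 (6.74%). In 8 of the 65 (12.3%) neither line reached a genotype quality of 20 at any site, against 31 of 5011 (0.619%). Of the 19 transcripts, 10 were deeper in e35RD and 9 deeper in e35RM. Only MLOC_65791.1, MLOC_43285.1, MLOC_9731.1, MLOC_34235.1, MLOC_27342.2 and MLOC_3986.1 of the 19 had a call in both lines at every usable site. The rest had a site without a call in a line, as had all of the 8 except MLOC_34235.1. The rule takes such a site as no reads, which favours entry into the 65, so both contrasts are in part set by the rule. A comparison limited to transcripts with calls at every site was not made. AK356234 had 0.997 informative reads of 30 at C72A in e35RD and 3.99 of 37 in e35RM, and AK364615 had 4.98 of 30 at A178G in e35RD and 2.99 of 29 in e35RM. At A178G all reads of both lines had the other base. At C72A 3 of 30 reads in e35RD and 2 of 37 in e35RM had the reference base. The low share was thus not limited to sites without a call.

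**Figure D4:**
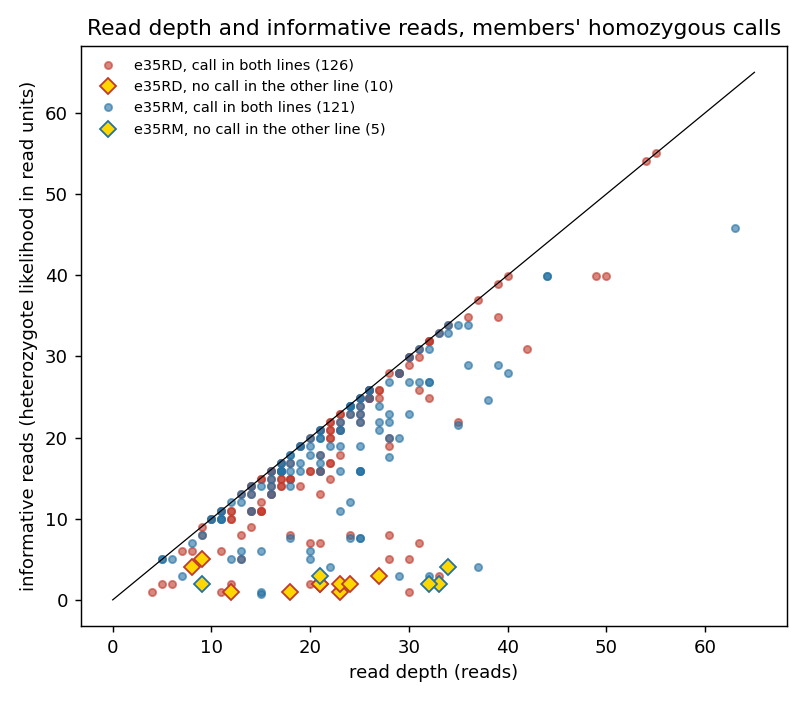
Number of informative reads (y axis, the likelihood of the heterozygote in units of 1 fully weighted read) against read depth (x axis, reads) at the homozygous calls in the 65 transcripts. Red is e35RD, blue is e35RM, gold diamonds are calls at sites without a call in the other line, and the line marks full weight. All 15 gold diamonds lie at or below 4.98 informative reads, although their depths reach 34 reads.

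The genotype calls of the lines were compared next. Opposite homozygous calls, the pattern of a segregating introgression, were found at 0 sites of the 65 transcripts, against 59 sites (0.252%) in 33 (0.659%) of the other deep transcripts. With so low a share in the others, 0 among 65 transcripts does not set them apart. The 170 sites were homozygous for the other base in both lines at 78 sites (45.9%, against 58.2% of sites in the other deep transcripts) and for the reference base at 39 sites (22.9%, against 29.5%). A heterozygous call in both lines was found at 21 sites (12.4%, against 9.03%), and a heterozygous call in 1 line with a homozygous call in the other at 13 sites (7.65%, against 2.44%). Heterozygous calls were thus found in lines described as homozygous, in 19 of the 65 transcripts (29.2%) and in 21.1% of the others.

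Allele reads were compared between the lines with Fisher's exact test (two-sided) for each of 38937 sites with at least 5 reads in each line, of which 150 lay in 61 of the 65 transcripts. With Benjamini-Hochberg adjustment over all sites, 51 sites (0.131%) in 17 transcripts were called, and 0 of the 150. At an unadjusted p below 0.05 there was 1 of the 150 sites (0.667%), against 221 of all sites (0.568%). This was T55G in MLOC_43285.1, named after its values were seen, with 2 of 33 reads with the other base in e35RD and 6 of 22 in e35RM (exact p = 0.0486, adjusted p = 1). The median absolute difference of the share of the other base was 0 percentage points over the 150 sites and the largest was 28.9 points. That largest difference was at T67C of MLOC_34115.1, with 8 of 9 reads in e35RD and 9 of 15 reads in e35RM. Reads within a pool are not independent plants, and at 10 to 30 reads per line a small difference of shares was not detectable.

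The genotype calls differed between the lines at 13 sites in 9 of the 65 transcripts, none of which the test of allele reads called. The share of the other base differed by 0.337 to 21.2 percentage points at these sites, with the largest difference at T55G of MLOC_43285.1. MLOC_45174.1 was called heterozygous in e35RD and homozygous for the reference base in e35RM at both sites, from 1 of 10 reads with the other base in e35RD and 0 of 22 and 0 of 20 reads in e35RM. In AK365531, T856C was called homozygous for the reference base in e35RD with a quality of 15, although 23 of 28 reads had the other base, and heterozygous in e35RM with 31 of 33 such reads.

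The rule asked for at least 2 sites, and 40 of the 65 transcripts (61.5%) had just 2, against 31.2% of the other deep transcripts. The highest number of sites was 6, against 52. Other features differed as well, in a comparison not matched for number of sites or depth, both of which the rule used. More sites can give a wider span. The sites lay close together, with a median span of 59 bases against 507 bases, and within 50 bases in 28 transcripts (43.1%) against 450 (8.98%). Sites so close were covered largely by the same reads, so they do not give separate measurements of depth. An AK identifier, which marks a cDNA sequence in the barley gene set, was carried by 17 of the 65 (26.2%), against 50.2% of the others, and the other 48 had MLOC identifiers of predicted genes. The AK identifiers were 13 of the 33 transcripts deeper in e35RD (39.4%) and 4 of the 32 deeper in e35RM (12.5%).

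Sites that had failed the filter and were not used by the rule gave a further view of depth in the same pools. Of the 65, 28 had a failed single-base site that a line covered with 5 or more reads. The ratio at these sites had the direction of the usable sites in 22 of the 28, and passed 0.5 in that direction in 11. A missing call counted as 0 reads here too, and it set the ratio at the failed sites of MLOC_34066.1 and MLOC_27342.2, among others. Signed by that direction, the median log2 ratio was 0.44 at the failed sites and 0.59 at the usable sites of the same transcripts. In the other deep transcripts the direction was the same in 1200 of 2281, and the medians were 0.02 and 0.07. Those others had by the rule an absolute ratio under 0.5, so weaker agreement was built into this comparison. Failed sites can be covered by the same reads as the usable sites beside them, so they are not a second sample.

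None of the 65 transcripts was in the authors' gene list of the segregating region, which held 11 of the deep transcripts (0.217%). MLOC_72272.1 and MLOC_54434.1, which the rule left out, were both in that list. Gene classes were looked up in only a part of the authors' list of variant sites. That part held 3 of the 65, all high confidence genes: MLOC_16151.2 on chromosome 3H, MLOC_3613.1 on chromosome 1H, and MLOC_5633.1 with no chromosome. Gene names, functions and sequences of the 65 were not analysed here.

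The limit of 0.5 cut through a continuous range of ratios. Just inside it in the direction of e35RD were AK369813, with means of 22.75 reads in e35RD and 15.75 in e35RM, and AK358422, with 26 and 18 reads (ratios 0.50 and 0.51). Just outside were AK357955, with 20.7 reads in e35RD and 14.3 in e35RM, and AK373888, with 31.5 and 22 reads, both at 0.499. In the direction of e35RM, MLOC_34115.1 had 14 reads in e35RD and 20.25 in e35RM, and MLOC_68925.3 had 15.75 and 22.75 reads (both −0.50). The mean of MLOC_68925.3 in e35RD counted a missing call at G280A as 0 reads, where e35RM had 23 reads. At its sites called in both lines the ratio was −0.11. Outside were MLOC_26399.2, with 16 reads in e35RD and 23 in e35RM, and AK358915, with 18.5 and 26.5 reads, at −0.497 and −0.496. Transcripts on both sides of the limit were thus alike in mean depth by the rule.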

How the data were processed

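RNA of shoot apices of e35RD and e35RM was sequenced by the authors, who aligned trimmed single-end reads to the merged high and low confidence barley gene set, removed duplicates and called and filtered variants with GATK. Read depths are whole read counts per site and line in the deposited table, without normalization by the authors, and genotype quality is a phred-scaled score of the authors' caller. Further columns gave allele reads, genotypes and genotype likelihoods. Another 5 columns held a Morex sample and were not used. Genotypes turned into dates and allele depths that had lost zeros in a spreadsheet were decoded. A site without a call counted as 0 reads.

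The depth ratio chose the transcripts and was not tested. Allele reads were compared per site by Fisher's exact test (two-sided) with Benjamini-Hochberg adjusted p-values, which was checked on simulated data (Python 3.11.15, pandas 2.3.3, numpy 2.4.6, scipy 1.17.1, matplotlib 3.10.9). The pooling of 4 libraries in 1 column left no test across replicates.

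The transcripts and lists were chosen with earlier results of these data known. Those named were the 10 with the largest ratios in each direction, those in the region list, with an allele call or with no read in a line, the 3 with the most sites and the 3 deepest in each direction, and the 2 just inside and outside the limit. MLOC_11032.1, MLOC_3613.1, MLOC_5633.1, MLOC_43285.1, MLOC_65791.1, MLOC_9731.1, MLOC_34235.1 and MLOC_27342.2 were named after their values were seen. The alternatives changed the minimum depth, the treatment of sites without a call, the mean over sites, the reads added, the scaling, the filter, the number of sites and the limits.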

Additional observations from a re-analysis of the deposited data

How the results depend on the processing

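The count of 65 transcripts depended on the limits. It was 408 (196 deeper in e35RD and 212 deeper in e35RM) where the mean depth had to reach 10 reads, 4 (3 and 1) where it had to reach 40 reads, 132 (66 and 66) with a limit of 0.4, 9 (5 and 4) with a limit of 1, 170 (91 and 79) with 1 or more sites and 9 (3 and 6) with 4 or more sites. It was 256 (115 and 141) from the deepest site alone, of which 36 were among the 65, 100 (49 and 51) from the median depth, 37 (17 and 20) with 5 reads added, and 139 (75 and 64) with failed sites included. Leaving out a site for the line without a call gave 92 transcripts (40 deeper in e35RD and 52 deeper in e35RM), of which 51 were among the 65.

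Under that last setting the ratio reversed to −0.024 in AK364615, −0.13 in MLOC_31814.1 and 0.25 in MLOC_61601.1. Leaving out a site for 1 line alone compares different sites between the lines. With only sites called in both lines, an alternative chosen after seeing the data, 53 transcripts passed, of which 51 were among the 65. With a quality limit of 20 for the calls of both lines, also chosen after seeing the data, 51 passed, and 40 of the 50 of the 65 that had a value were among them. Depths scaled to equal sums gave 66 (29 and 37), and a minimum of 5 reads in each line gave 55. The count of member sites with a different allele share was 0 under each alternative run.

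No paired analysis was possible because the libraries of a line were pooled in 1 column, and for the same reason no fit left out a library.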
